A study of Mus musculus with 11 samples.

Results

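The accessible chromatin described here lay at 38 genes of the mouse that are subject to genomic imprinting, in 17 imprinted clusters. Of the 94963 regions in the pooled list of accessible regions, 130 overlapped 1 of these genes or the 10 kb on either side of it (gene bounds from GENCODE M21). Open DNA was mapped by ATAC-seq, a cutting assay with the Tn5 transposase, in MPC2 cells, a conditionally immortalised mouse mesenchymal line that is 1 clone. The 11 cultures comprised 3 of undifferentiated MSC with vehicle (DMSO), 3 of MSC with FG-4592, 2 of osteocytes with vehicle and 3 of osteocytes with FG-4592. The osteocytes were the same clone after 3 weeks in osteogenic medium, and cultures were exposed for 48 hours to vehicle or to 50 uM FG-4592 (Roxadustat), which blocks HIF prolyl hydroxylases and so stabilises hypoxia-inducible factor. Per the paper, undifferentiated cells were kept at a lower temperature, at which the line proliferates. The osteocytes were cultured at a higher temperature, at which the line ceases to divide. Every group thus came from the same immortalised clone, but temperature and growth state differed between MSC and osteocytes.

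The list gave 1 level per region, read from the values as an average log2 CPM (CPM, cut counts relative to library size) over all the cultures. From this list the groups could not be compared, no level had a replicate error, the depth per culture was unknown and no test was run. For the same reason the labelled cell types could not be checked against their markers. Merging gave each region the full extent of its overlapping peaks, and levels were higher in wider regions. ATAC-seq reads neither strand nor, in this list, the parental allele, so genes that share a start share its region, and 1 open allele cannot be told apart from 2.

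Imprinted genes are expressed from the maternal or the paternal chromosome according to DNA methylation that a control element received in the egg or the sperm. Most control elements methylated in the egg are CpG islands that hold the start of a paternally expressed transcript, often a long noncoding RNA that silences its neighbours. The zinc finger protein ZFP57 binds the methylated hexamer TGCCGC and protects that methylation in the early embryo, and the control element upstream of H19, methylated in the sperm, is bound by the insulator protein CTCF on the unmethylated maternal copy. Several members act in fetal growth and in mesenchymal tissues, among them Igf2, Igf2r, Grb10 and Dlk1.

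The sequences below come from accessible regions at 9 control-element starts, 1 window around hexamer matches from each, and are shown because the density of the hexamer in these regions is described next. Each is 120 bases of the reference genome (GRCm38, which is mm10), written along the gene named and outside annotated UTRs. Capitals mark TGCCGC or its reverse complement GCGGCA. None is printed for Impact, for Grb10, where no match lay in a window free of UTRs, or for Zrsr1, which held no match. In the Nespas stretch a forward and a reverse match overlap.
Kcnq1ot1, chr7:143295648-143295767, minus strand: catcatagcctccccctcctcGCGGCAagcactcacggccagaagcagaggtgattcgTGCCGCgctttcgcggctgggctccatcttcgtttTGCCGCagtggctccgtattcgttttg
Peg3/Usp29, chr7:6729641-6729760, minus strand: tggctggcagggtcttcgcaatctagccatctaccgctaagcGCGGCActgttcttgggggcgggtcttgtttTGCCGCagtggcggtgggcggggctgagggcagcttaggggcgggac
Snrpn, chr7:60004693-60004812, minus strand: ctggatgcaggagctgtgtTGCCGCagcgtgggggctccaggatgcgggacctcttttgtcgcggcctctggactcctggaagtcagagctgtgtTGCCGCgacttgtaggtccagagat
Peg10/Sgce, chr6:4747867-4747986, plus strand: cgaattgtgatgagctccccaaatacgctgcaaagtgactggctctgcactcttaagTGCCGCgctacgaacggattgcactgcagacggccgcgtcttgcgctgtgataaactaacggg
Mest, chr6:30738336-30738455, plus strand: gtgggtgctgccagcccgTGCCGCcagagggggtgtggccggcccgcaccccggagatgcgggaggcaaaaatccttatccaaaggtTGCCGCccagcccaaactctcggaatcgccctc
Nespas, chr2:174295859-174295978, minus strand: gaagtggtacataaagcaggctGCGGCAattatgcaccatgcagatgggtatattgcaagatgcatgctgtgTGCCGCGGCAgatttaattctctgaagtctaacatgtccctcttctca
Plagl1, chr10:13091175-13091294, plus strand: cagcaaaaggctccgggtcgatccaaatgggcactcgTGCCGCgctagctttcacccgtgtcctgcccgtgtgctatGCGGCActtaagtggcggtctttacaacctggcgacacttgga
Airn, chr17:12741719-12741838, plus strand: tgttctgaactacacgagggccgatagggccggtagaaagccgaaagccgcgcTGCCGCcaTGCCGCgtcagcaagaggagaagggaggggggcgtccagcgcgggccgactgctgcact
Peg13, chr15:72809942-72810061, minus strand: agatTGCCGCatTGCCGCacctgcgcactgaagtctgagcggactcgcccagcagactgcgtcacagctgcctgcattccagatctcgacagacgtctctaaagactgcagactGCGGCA

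At H19 the control element lies upstream of the gene, and each accessible region there held matches to GGNGGCAG, the core of its CTCF sites. They are shown to place these cores inside the accessible sequence. Capitals mark GGNGGCAG in 120 bases from each of the 2 regions, along H19.
H19 upstream, chr7:142580708-142580827, minus strand: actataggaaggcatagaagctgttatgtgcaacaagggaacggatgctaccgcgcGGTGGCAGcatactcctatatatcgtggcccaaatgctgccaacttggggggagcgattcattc
H19 upstream, chr7:142581978-142582097, minus strand: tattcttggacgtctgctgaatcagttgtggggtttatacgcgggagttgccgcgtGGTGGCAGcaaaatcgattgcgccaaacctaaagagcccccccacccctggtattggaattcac

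Among 14 genes or gene pairs whose start lies in a control element, 12 had an accessible region within 1000 bp of that start. For the 6 with several regions at their starts, Peg10/Sgce, Mest, Nespas, Grb10, Plagl1 and Airn, the region with the highest CpG ratio was taken, and their other start regions were counted with the rest. The levels of these 12 regions ran from 1.88 at Peg3/Usp29 to 7.07 log2 CPM at Impact, with a median of 4.43. The other 25 regions at starts of member genes had a median of 1.65, with a range from 0.37 to 6.55. They were also narrower, at a median of 306 bp, than the 12, at 1425.5 bp. This contrast rests in part on that choice. With every start region of the control-element genes kept, 18 regions had a median of 3.53, and the 19 start regions of the other member genes had 2.05. For Nnat and Slc38a4 the list held no region at the start.

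TGCCGC was dense in the control-element starts. It occurred in 11 of these 12 regions (91.7%) and 57 times in their 15.3 kb, or 3.74 matches per kb. All 21537 regions at transcript starts of the genome held 0.658 matches per kb, and 35.4% had at least 1. The 11959 of them whose ratio of observed to expected CpG lay in the range of the control-element starts, 0.48 to 1.09, held 0.850 matches per kb. At least 3 matches occurred in 10 of the 12 control-element regions (83.3%), in 9.41% of the starts in that CpG range and in 0 of the other 25 member starts. A count per region depends on its width, which had medians of 1425.5 bp, 1116 bp and, at the other member starts, only 306 bp. Those other starts held 0.564 matches per kb, close to the value of starts in general. The exceptions among the control elements were Zrsr1, with 0 matches in 1577 bp, and Peg10/Sgce, with 2 in 1741 bp. Because the hexamer holds a CpG, choosing regions by CpG ratio favoured it. With all 18 start regions of these genes kept, the density was 3.26 matches per kb, 10 regions (55.6%) had at least 3 matches, and the 19 regions of the other member genes held 0.656 per kb. With the region of the highest level taken per gene or pair, the density was 3.48 per kb, and 9 of 12 had at least 3 matches.

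**Figure D1:**
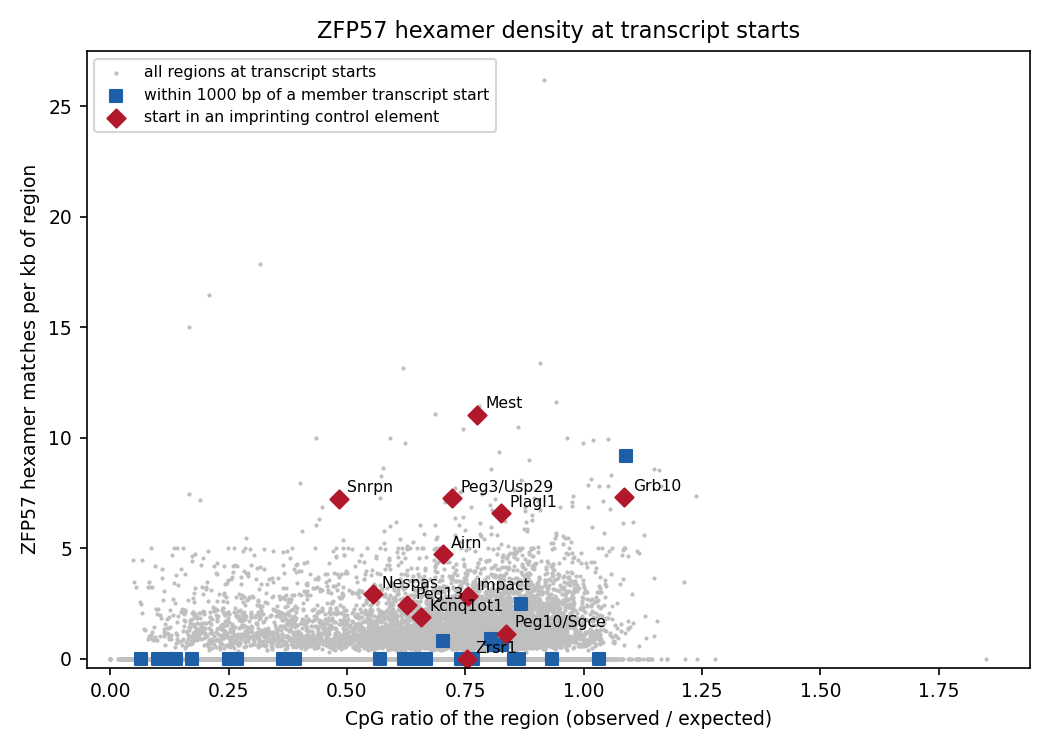
ZFP57 hexamer (both strands) per kb of region, against the ratio of observed to expected CpG of the region. Grey points are all 21537 regions at transcript starts, blue squares the other 25 member start regions and red diamonds the 12 regions at control-element starts, of which Mest has 11.1 matches per kb and Zrsr1 has 0. The blue square above 8 is the 218-bp region in Ascl2, which has 2 matches.

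The control-element starts varied among themselves. Mest, which encodes a hydrolase-like membrane protein, had 9 matches in 814 bp at a level of 3.38, and Snrpn, which encodes a spliceosomal protein, had 10 in 1379 bp at 3.54. Airn, the antisense RNA that silences Igf2r, had 7 matches in 1472 bp at 4.71. Plagl1, a zinc finger transcription factor, had 6 in 908 bp at 3.52. The density of the hexamer and the level had different orders: Kcnq1ot1 and Peg13, at 4.60 and 5.65, held 1.89 and 2.44 matches per kb, whereas Peg3/Usp29 and Grb10, at 1.88 and 2.06, held 7.28 and 7.31.

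For their width, start regions of imprinted genes were often less accessible than starts in general. Of the 12 control-element starts, 9 (75%) lay below the median of all regions in the same 1 of 20 width classes, against 37.4% of all regions at transcript starts and 28.6% of the starts in the same CpG range. Of the other 25 member starts, 13 (52%) lay below. Mest, at -0.02, and Nespas, at -0.10, were close to their class, and against regions within 10% of their own width they lay above the median, by 0.08 and 0.13. Relative to its class median, Snrpn lay at -1.33 log2 units, Kcnq1ot1 at -0.93 and Airn at -0.82. The last 2 lie at the narrow end of the widest class, which begins at 1380 bp. Against regions within 10% of their own width the 3 lay at -1.55, -0.78 and -0.53, and 8 of the 12 control-element starts (66.7%) and 14 of the other 25 (56%) lay below the median, against 36.6% of all regions at starts. Impact, which encodes a regulator of the kinase GCN2, was the main exception, 1.54 above the class median of 5.53. Peg13 and Peg3/Usp29 were 0.12 and 0.14 above theirs, although Peg13 lay at -0.20 against regions within 10% of its width. How many alleles were open at each start was not measured.

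**Figure D2:**
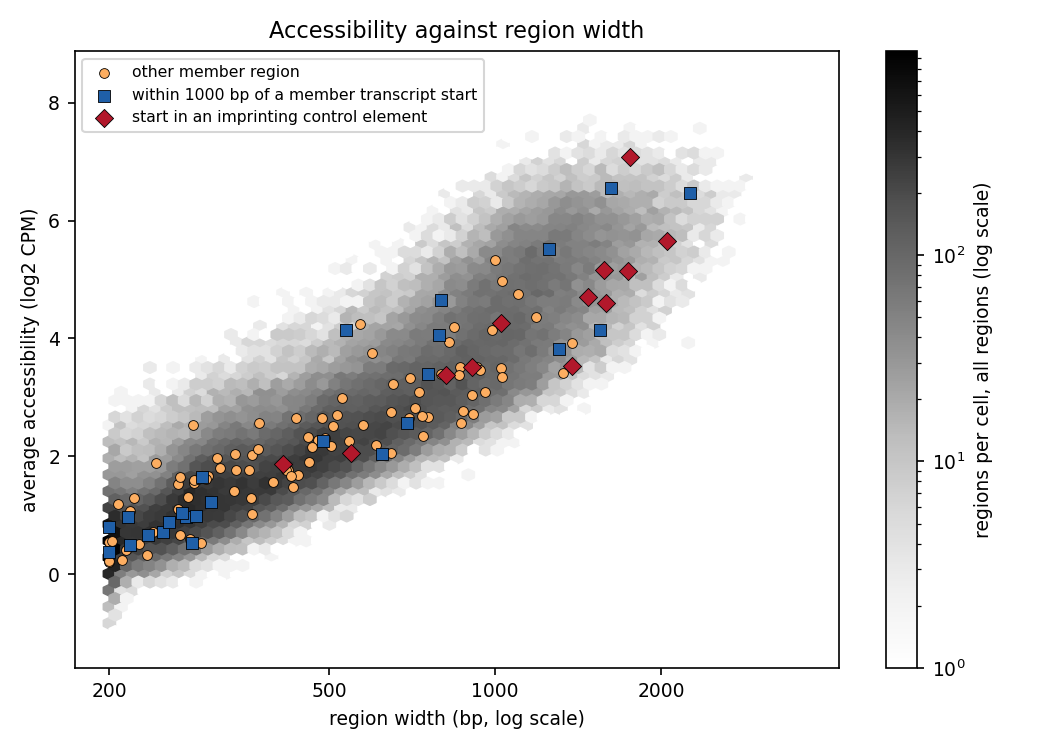
Average accessibility (log2 CPM) against region width (bp, log scale). Grey cells count all 94963 regions, orange circles are members away from member starts, blue squares members within 1000 bp of a member start, and red diamonds the 12 control-element starts. Of the diamonds, 9 of 12 lie below the median of their width class, and Impact, at 7.07, sits near its top.

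All 130 member regions together lay close to the list as a whole. Their median level was 2.22 against 2.12 log2 CPM for all regions, and they were 481.5 bp wide at the median, all regions 460 bp. Relative to the median of their width class they lay at -0.02. The windows of the 38 genes covered 2768 kb and held 4.70 regions per 100 kb, against 5.22 in the windows of all protein-coding genes. In the highest 10% of levels lay 9 member regions (6.92%). Regions at transcript starts of any gene made up 33.8% of the members (44 of 130, 95% Wilson interval 26.3 to 42.3%, counting error only) and 22.7% of all regions. The rule draws windows around genes, whereas only 67244 of the 94963 regions lie in windows of protein-coding genes. All regions are thus not a like background for this share, which was not computed over those windows. The 44 members at starts had a median level of 2.46, whereas all regions at starts had 3.89. The 86 members away from starts had a median of 2.10 against 1.89.

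By position, 37 regions lay within 1000 bp of a start of a member gene, 7 at the start of another gene only, 14 in an exon, 50 in an intron and 22 outside the member genes. The member starts had the highest median level, 3.38, and the introns the lowest, 1.93. Median CpG ratio was 0.70 at member starts and 0.56 at all regions at starts. It was 0.22 at members away from starts, close to the 0.19 of all regions away from starts.

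**Figure D3:**
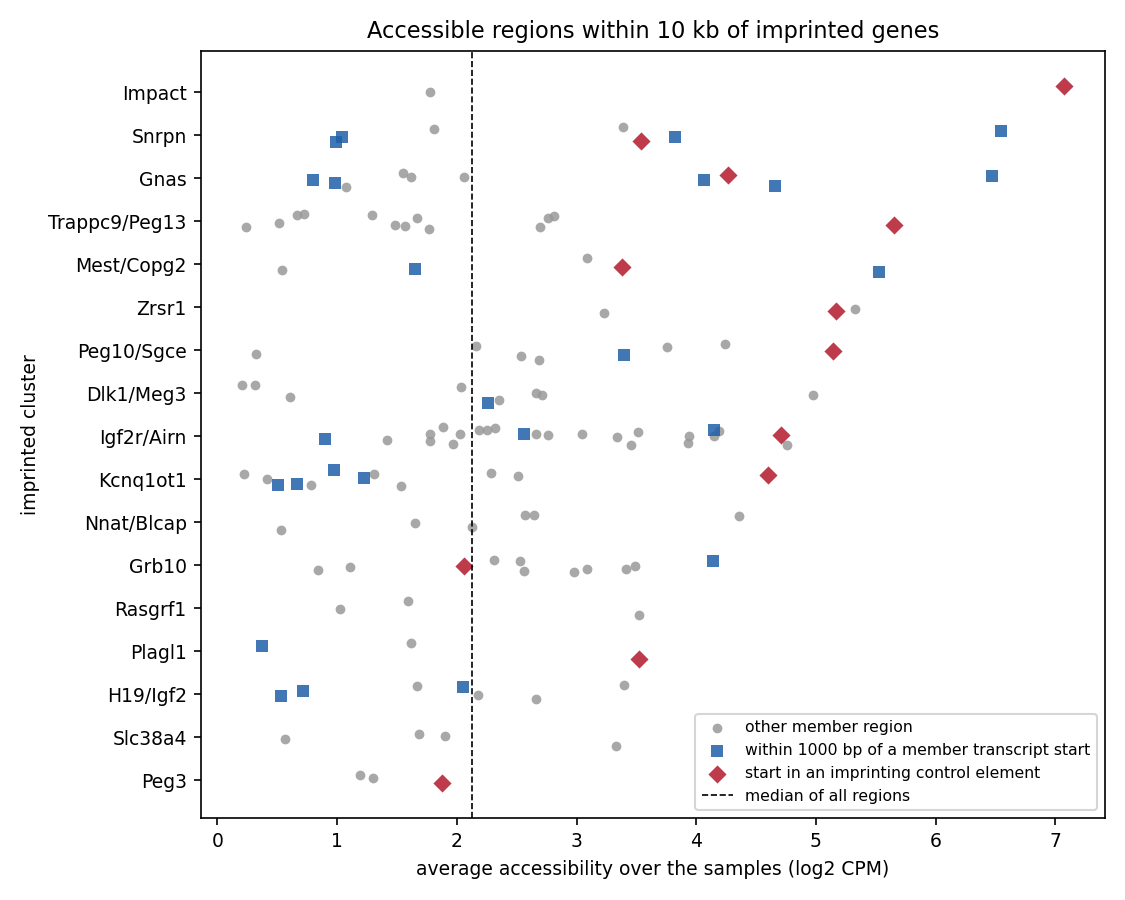
Average accessibility (log2 CPM) of each of the 130 member regions, by imprinted cluster, ordered by the highest level in the cluster. Grey circles are regions away from member starts, blue squares regions within 1000 bp of a member start, red diamonds control-element starts, and the dashed line is the median of all regions, 2.12. Impact reaches 7.07 and Peg3 only 1.88.

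In the central 300 bp of each region, TGCCGC occurred in 21 of 130 members (16.2%, 10.8 to 23.4%) and in 7.22% of all regions. At member starts it occurred in 13 of 37 (35.1%), against 18.4% of all regions at starts. GGNGGCAG occurred in 26 members (20%) and in 13.1% of all regions. The hypoxia response element core, ACGTG or GCGTG, was found in 45 members (34.6%) and 33.0% of all regions. The AP-1 site, searched as TGANTCA, was found in 19 (14.6%, 9.56 to 21.7%) and 19.7%. All were searched on both strands. At member starts the hypoxia response element core was found in 20 of 37 (54.1%), against 50.8% of all regions at starts. Its GCGTG form was found there in 15 (40.5%) against 39.8%, and its ACGTG form in 11 (29.7%) against 20.7%. The ZFP57 hexamer and both forms of this core hold a CpG. Neither these regions nor the promoters described next were matched for CpG content, so their shares do not separate the motifs from it. In RefSeq promoters (GRCm38, 250 bases before to 50 after the start), which matched 29 member genes, TGCCGC occurred at 9 (31.0%) and at 13.1% of all genes. There GGNGGCAG occurred at 8 (27.6%) against 14.1%, ACGTG at 7 (24.1%) against 21.8%, GCGTG at 17 (58.6%) against 35.2% and TGANTCA at 1 (3.45%) against 8.97%.

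By gene, 37 of the 38 members had at least 1 region in their window. The exception was Zim1, a maternally expressed zinc finger gene in the Peg3 cluster. Among protein-coding genes, 29 of 30 members had a region, and the share over all protein-coding genes was 79.6%. A region within 1000 bp of a transcript start was found for 26 of the 38 genes (68.4%). For protein-coding members it was 21 of 30 (70.0%), near the 64.1% of all protein-coding genes, and with only regions at least 500 bp wide it was 14 of 30 (46.7%) against 56.9%. For the noncoding members it was 5 of 8 (62.5%), against 30.4% of all long noncoding genes, and the 5 were Kcnq1ot1, Airn, Nespas, Peg13 and Mirg.

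The 12 genes without a region at a start were H19, Zim1, Ndn, Dlk1, Meg3, Rian, Rtl1, Nnat, Blcap, Rasgrf1, Slc38a4 and Trappc9. Starts were called CpG-rich at a GC content of at least 55% and a CpG ratio of at least 0.6. Of 21 protein-coding members with a CpG-rich start, 17 had a start region (81.0%), against 91.6% of the 10095 such genes in the genome. The 4 without were Dlk1, Nnat, Blcap and Rasgrf1.

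Start levels were grouped by the allele each gene is known to be expressed from, with the highest region taken per gene. The 5 maternally expressed genes with a start region had a median of 1.23 log2 CPM, from 0.67 at Phlda2 to 4.15 at Igf2r. The lowest of them, Phlda2, Cdkn1c (0.97) and Ascl2 (1.23), all belong to the Kcnq1ot1 cluster, and Mirg had 2.26. The 17 paternally expressed genes had a median of 3.82, from 0.99 at Magel2 to 7.07 at Impact. Of these 17 genes, 13 took their value from a control-element start, in 11 regions with a median of 4.60, since Peg3 and Usp29 share a region, as do Peg10 and Sgce. The other 4, Igf2, Magel2, Mkrn3 and Peg12, had a median of 1.55, near that of the maternally expressed genes. The 4 genes whose imprinting depends on tissue or isoform, Grb10, Copg2, Gnas and Ube3a, ran from 4.14 to 6.55. The groups overlapped, and their median start widths, 306, 1306 and 1435.5 bp, differed in the same order. Over all protein-coding genes with a start region the median was 5.03, and over the protein-coding members 3.54.

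**Figure D4:**
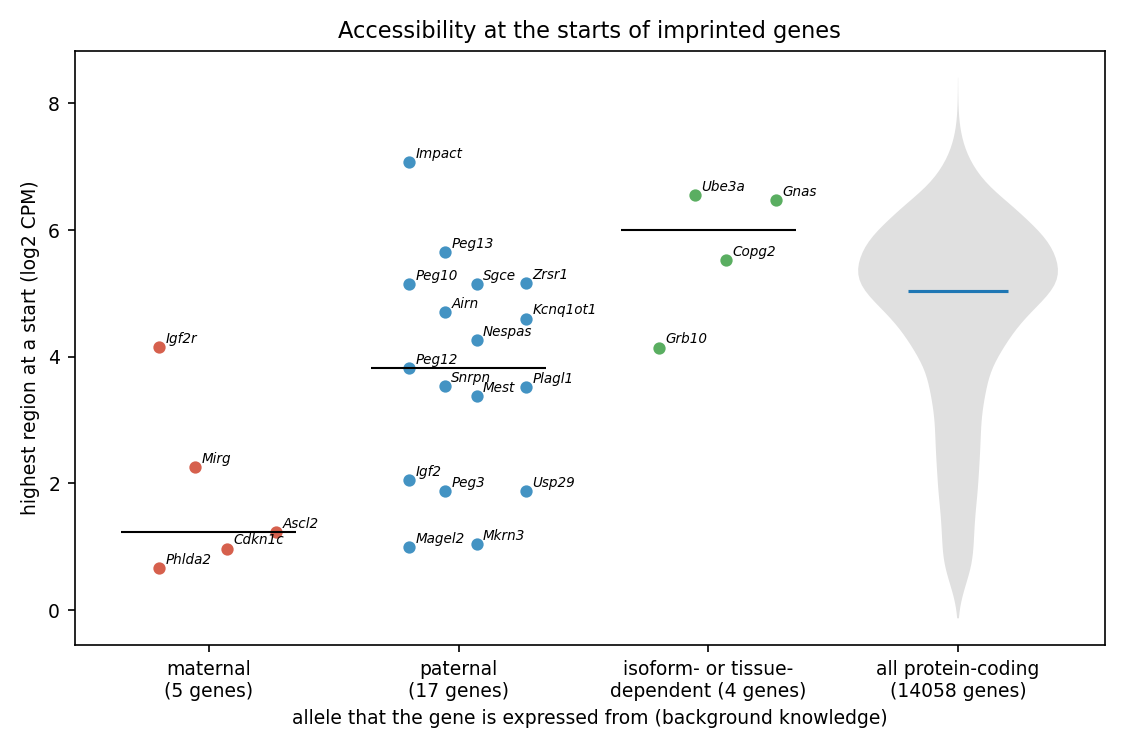
Highest region at a start of each member gene (log2 CPM), by the allele the gene is expressed from. Points are genes, black lines are medians (1.23, 3.82 and 6.00) and the grey shape is the distribution over 14058 protein-coding genes with a start region, whose median is 5.03. Igf2r stands at 4.15, apart from the other maternally expressed genes.

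The Kcnq1ot1 cluster on chromosome 7 held 12 regions and a wide contrast, in level and in width, between a control-element start and the genes it governs. The start of Kcnq1ot1, the antisense RNA that silences the cluster on the paternal chromosome, was covered by a region of 1585 bp at 4.60 (chr7:143295462-143297046), with a 200-bp region at 0.22 just inside the gene. The start regions of the maternally expressed genes were narrow and low. Cdkn1c, which encodes a cyclin-dependent kinase inhibitor, had 0.97 over 275 bp (chr7:143459938-143460212). Phlda2, which restrains placental growth, had 0.67 over 235 bp (chr7:143502034-143502268). Ascl2, a transcription factor of the placenta and intestine, had 1.23 over 306 bp (chr7:142967473-142967778) and 0.50 over 218 bp (chr7:142968248-142968465). Relative to the median of the width class the order was reversed. Kcnq1ot1 lay at -0.93, Cdkn1c at -0.26, Phlda2 at -0.16 and the Ascl2 regions at -0.13 and -0.19. The 3 maternally expressed genes all have CpG-rich starts, and the CpG ratios of their start regions were 0.77 to 1.09. The 3 regions upstream of Cdkn1c were each higher than its start, at 1.53, 2.29 and 2.51.

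At H19 and Igf2, also on chromosome 7, there were 7 regions. H19, a maternally expressed long noncoding RNA, had none at its start. Its 2 regions were those printed above, centred at -2372 and -3770 bp from the nearest start, with levels of 2.66 over 699 bp (chr7:142580166-142580864) and 2.18 over 504 bp (chr7:142581662-142582165). They held 2 and 3 matches to GGNGGCAG, between 2166 and 3891 bp upstream of the gene, and 2 and 3 to TGCCGC. Igf2, the paternally expressed growth factor gene, had 3 start regions, at 0.71 (250 bp, chr7:142657387-142657636), 0.53 (282 bp, chr7:142658388-142658669) and 2.05 (623 bp, chr7:142667577-142668199). The highest region of the cluster, 3.40 over 799 bp, lay past the 3′ end of Igf2 at chr7:142646466-142647264.

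In the Snrpn cluster 7 regions lay in 374 kb of windows, or 1.87 per 100 kb. The highest covered the start of Ube3a, which encodes a ubiquitin ligase that is imprinted in neurons, at 6.55 over 1620 bp (chr7:59228030-59229649). The Snrpn control-element region (chr7:60003883-60005261) had 3.54, and Peg12, an intronless gene, had 3.82 over 1306 bp (chr7:62463503-62464808). The neighbouring paternally expressed genes Magel2 (0.99 over 287 bp, chr7:62377074-62377360) and Mkrn3 (1.04 over 271 bp, chr7:62420030-62420300) were low. Ndn, a MAGE-family gene, had no region within 1000 bp of its start and 1 of 860 bp at 3.39 that began 1505 bp past it, in its only exon.

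The Peg3 cluster was the sparsest, with 3 regions in 316 kb (0.95 per 100 kb). The region shared by Peg3, a zinc finger gene, and Usp29 had 1.88 over 412 bp (chr7:6729399-6729810) and 3 TGCCGC matches. It lay inside Peg3, 609 bp from the nearest start, and covered neither start. The other 2 regions were in introns of Usp29, at 1.30 over 222 bp (chr7:6918387-6918608) and 1.20 over 207 bp (chr7:6937256-6937462).

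Igf2r and Airn, on chromosome 17, had the most regions, 24, or 12.1 per 100 kb. Their median level was 2.71 and their range 0.90 to 4.76. Both opposing starts were accessible: Airn at 4.71 over 1472 bp (chr17:12741122-12742593), inside an intron of Igf2r, and Igf2r, the receptor that clears IGF2, at 4.15 over 1551 bp (chr17:12768614-12770164). Another annotated Igf2r start had a region at 2.56 over 693 bp (chr17:12750792-12751484), and a downstream Airn start one at 0.90 over 257 bp (chr17:12816749-12817005). The highest region lay in an intron of Airn away from annotated starts, at 4.76 over 1098 bp (chr17:12831855-12832952). Without this cluster the median of the remaining members was 2.06.

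The Gnas cluster, on chromosome 2, had 10 regions, 6 of them at member starts. The promoter of the stimulatory G protein alpha subunit had 6.47 over 2252 bp (chr2:174328935-174331186), the widest of the members, with a GC content of 72.0%. The region just upstream, at starts of other Gnas transcripts, had 4.66 over 797 bp (chr2:174327252-174328048). Its CpG ratio was 0.87, it held 2 TGCCGC matches, and it lay 1.25 above its width class. It was counted with the other member starts, since only the Nespas start was taken as a control element in this cluster. Whether it also lies in a control element was not assessed. The Nespas antisense start had 4.27 over 1025 bp (chr2:174295011-174296035), with a second region beside it at 0.79 over 200 bp (chr2:174294602-174294801). The most upstream Gnas start had only 0.98 over 216 bp (chr2:174284104-174284319). An annotated start near the 3′ end of Gnas had 4.06 over 790 bp (chr2:174343725-174344514), with a CpG ratio of 0.10.

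Peg10 and Sgce, on chromosome 6, start back to back. Peg10 is a gene derived from a retrotransposon and Sgce encodes epsilon-sarcoglycan. Their shared start had 5.15 over 1741 bp (chr6:4746624-4748364), the highest of 8 regions. An internal Sgce start had 3.39 over 755 bp (chr6:4740315-4741069), and an intron of Peg10 held a region of 569 bp at 4.24, which was 1.69 above its width class. In the Mest cluster, with 5 regions, the start of Copg2, a coat protein gene with imprinting in some tissues, had 5.52 over 1251 bp (chr6:30895995-30897245). The Mest control-element start had 3.38 (chr6:30737677-30738490), and a region just upstream had 1.65 over 294 bp (chr6:30736988-30737281).

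The Dlk1/Meg3 cluster, on chromosome 12, had 9 regions over 5 genes, of which 1 lay at a member start and 3 at starts of other genes, among them microRNA genes. The member start was that of Mirg, at 2.26 over 487 bp (chr12:109748545-109749031), at internal starts near its 3′ end. The highest of the cluster, 4.97 over 1030 bp (chr12:109749262-109750291), overlapped the last part of Mirg. The noncoding RNA Meg3 had 2 regions in its exons, at 0.31 and 0.61, and 1 upstream at 2.35. Dlk1, which encodes a Notch-family transmembrane protein of progenitor cells, had 1 region upstream, at 2.66, and 1 past its end, at 0.21. A region at 2.71 lay in the exon of Rtl1, over microRNA genes. Rian had 1 in an exon, at 2.04.

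Grb10, which encodes an adaptor that restrains insulin and IGF signalling, had 11 regions on chromosome 11. The CpG-island start of its control element had 2.06 over 547 bp (chr11:12025851-12026397), with a GC content of 67.6%. A higher level, 4.14 over 536 bp (chr11:11939486-11940021), was found at an internal start with a CpG ratio of 0.12, and this was 1.81 above its width class. Zrsr1, a retrocopy of a splicing factor gene in an intron of Commd1, had 5.17 over 1577 bp at its start (chr11:22971640-22973216). The start of Commd1 itself had 5.32 over 1001 bp (chr11:22981684-22982684), and the third region there had 3.23 over 652 bp (chr11:22965298-22965949).

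Of the remaining clusters, Plagl1 on chromosome 10 had 3.52 at its control-element start (908 bp, chr10:13090436-13091343), 0.37 at an upstream start (200 bp, chr10:13061113-13061312) and 1.62 in an intron (299 bp, chr10:13087245-13087543). Peg13, a noncoding RNA in an intron of Trappc9 on chromosome 15, had 5.65 over 2045 bp (chr15:72809043-72811087). The other 12 regions of that cluster ran from 0.24 to 2.81, and none was at a start of Trappc9. Nnat and Blcap, on chromosome 2, had 6 regions in 34.9 kb, the densest at 17.2 per 100 kb, and none at a start. The highest, 4.36 over 1187 bp (chr2:157552241-157553427), lay past the 3′ end of Blcap.

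Slc38a4, an amino acid transporter gene on chromosome 15, had 4 intronic regions from 0.56 to 3.33, the highest over 700 bp (chr15:97003999-97004698). Rasgrf1, a RAS exchange factor gene on chromosome 9, had 3.52 over 863 bp upstream of its start (chr9:89906427-89907289). Its intronic regions had 1.03 over 363 bp (chr9:89972464-89972826) and 1.59 over 285 bp (chr9:89979379-89979663). Impact had 7.07 over 1755 bp at its start, the highest of all members and above 99.9% of the list. Its second region had 1.77 over 418 bp.

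At the edge of the 10-kb rule, the outermost regions included were 9004 bp from Blcap (0.53) and 8889 bp from Igf2 (1.67). The nearest left out were 10405 and 11046 bp from Dlk1, at 0.60 and 3.16.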

How the data were processed

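The authors trimmed the ATAC-seq reads, aligned them to mm10 with Bowtie2, removed duplicates with Picard 2.17.8 and discarded mitochondrial and poorly mapped reads. Peaks were called with MACS2 2.2.7.1, merged over samples and cleared of the ENCODE blacklist. The authors counted cuts per region and normalised them by TMM in edgeR 3.24.3. A Tn5 offset shift was not given in the sources used here, and a library the authors removed was not analysed here. The deposited list holds 1 value per region, read from the values as an average log2 CPM, with no column per sample, so FG-4592, osteocyte and interaction effects were not computed.

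Member genes and lists were chosen with earlier results of these data known. Regions were assigned by overlap with GENCODE M21 genes plus 10 kb. Starts were matched within 1000 bp, motifs on both strands in the central 300 bp or, at control elements, the whole region. CpG richness of a start was computed over the 500 bp on either side of it. Regions named in full were those at member starts, the highest of each cluster and all of clusters with at most 3 regions, the 2 at Impact without coordinates. Control-element starts followed textbook knowledge. Chromosome lengths were compared with GRCm38, and 0 regions ran past an end. On simulated data 400 of 400 implanted hexamers and 500 of 500 overlap queries were recovered. Python 3.11.15 with pandas 2.3.3, numpy 2.4.6, scipy 1.17.1 and matplotlib 3.10.9 was used. Alternatives changed the window, start distance, width limit, joining, motif window and annotation.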

Additional observations from a re-analysis of the deposited data

How the results depend on the processing

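No paired analysis was possible because each region has a single pooled value and no test was run. The count of 130 regions became 221 with 50 kb on either side and 62 with regions at least 500 bp wide. It ran from 104 to 149 under the other windows, the joining of regions and the midpoint rule. The median level of 2.22 became 3.44 with the width limit (3.48 for all regions) and 3.33 per kb of width (3.25 for all regions). The share at transcript starts, 33.8%, became 25.4% within 500 bp, 44.6% within 2500 bp and 24.6% with protein-coding genes only, against 19.2, 30.9 and 18.8% of all regions. The share with TGCCGC, 16.2%, became 10.8% in the central 200 bp (5.07% of all regions) and 25.8% with the width limit (10.3%). The reasons for these moves were not tested. In each of these settings the members stayed above all regions in the shares, although all regions are not a like background for the share at starts. The count of members with a start region ran from 18 to 32, and its order against all protein-coding genes turned. The share of protein-coding members was above that of all such genes within 500 bp (63.3 against 62.1%) and 2500 bp (83.3 against 68.2%), and below it with the start of the gene record only (56.7 against 59.1%) and with the width limit (46.7 against 56.9%). The CpG ratio ran from 0.26 to 0.28. Leaving out each cluster in turn put the median level between 2.06 and 2.32. After the data were seen, 2 further choices of region at the control-element starts were tried, which gave median levels of 3.53 and 4.43 against 4.43, and widths within 10% in place of classes, which gave 8 regions below the median against 9. The unknown depth limits every level, and intervals cover counting error only.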
